A study of Mus musculus with 60 samples.

Results

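The 10 genes described here encode the machinery that loads peptides onto MHC class I molecules: H2-K1, H2-D1, B2m, Tap1, Tap2, Tapbp, Psmb8, Psmb9, Psmb10 and Nlrc5. They were taken by symbol, as the rows of 3 count tables whose Ensembl identifier maps to one of these names. All 10 had a row among the 28773 of the single organoid table and the 23068 of the passage table, and 9 (all but Nlrc5) among the 23440 of the culture table. The samples were organoids grown from cholangiocytes, the epithelial cells of the bile ducts, from livers of 3- to 4-month-old C57BL/6N mice, for which the labels name no transgene and no treatment. In the first experiment, 3 dome cultures (organoids embedded in drops of Matrigel, a basement membrane extract) were set beside 3 suspension cultures kept on a shaker in dilute Matrigel, all grown from pools of 2 to 4 animals. In the second, bulk cultures of Sets 1, 3 and 4 were sequenced at passage 4 and again at passage 11, each set being the organoids of 1 mouse, so that n is 3 sets a passage. In the third, organoids were picked one by one from suspension, and the 35 that the study kept are used here, namely 8 Set 1 organoids from passage 11, 10 Set 2 organoids and 5 Set 3 organoids from passage 3, and 12 Set 4 organoids from passage 4. Because every set was 1 mouse, its organoids are replicates of that set alone, and in a comparison of sets the animal cannot be told apart from its passage or its time in culture.

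Nearly every cell type shows peptides from its own proteins on class I molecules, where cytotoxic T cells read them. Proteasomes cut the proteins, the TAP transporter carries the peptides into the endoplasmic reticulum, and tapasin and other chaperones load them onto a heavy chain paired with beta-2 microglobulin. Interferons raise most of these genes, through IRF factors and through NLRC5, a co-activator of class I promoters, and exchange the catalytic subunits of the standard proteasome for those of the immunoproteasome.

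In the GRCm38 annotation (GENCODE M21), 7 of the 10 genes lie on chromosome 17, within the MHC region, among them H2-K1 (chr17:33996017-34000347, minus strand), Psmb8 (chr17:34197721-34201454, plus strand) and H2-D1 (chr17:35262730-35267499, plus strand). B2m is on chromosome 2 (chr2:122147686-122153083, plus strand), and Psmb10 and Nlrc5 are on chromosome 8. Tap1 (chr17:34187553-34197225, plus strand) and Psmb9 (chr17:34181987-34187764, minus strand) run away from each other and overlap at their 5′ ends. RefSeq (GRCm38.p6) gave promoter windows for 8 of the 10, and the 250 bases before each start were searched on both strands. Sites are placed relative to these RefSeq starts, which can differ from the GENCODE bounds. The windows of H2-D1, Tapbp, Psmb8 and Psmb9 lie inside the bounds that GENCODE gives for these genes. The stretch from a CRE core (TGACG) to a reversed CCAAT box (ATTGG) with 19 to 21 bases between them, the arrangement of the X2 and Y boxes through which NLRC5 and its partners act, was found before H2-K1, H2-D1 and B2m, and in 0.189% of all 32851 windows. It is shown because it is shared by the heavy chains and their light chain, with both boxes in capitals, on the strand of the gene.
H2-K1 (chr17:34000359-34000388, minus strand): TGACGcgcagtcagctcttacccccATTGG
H2-D1 (chr17:35262993-35263022, plus strand): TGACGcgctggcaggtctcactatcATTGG
B2m (chr2:122147609-122147638, plus strand): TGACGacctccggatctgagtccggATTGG
The spacer was 20 bases in each. The heavy chain stretches shared 23 of 30 bases, and B2m shared 13 with H2-K1 and 12 with H2-D1.

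Upstream of it, only the heavy chains among the 8 held a kB site (GGGAN followed directly by TNCCC, where N is any base, found in 0.944% of windows), followed after 10 bases by a reversed IRF core (AANNGAAA, found in 21.3%). The sites overlap none of the boxes above, and the kB letters match on both strands at an offset of 1 base. Both stretches, with the sites in capitals, differ at 1 of 29 bases.
H2-K1 (chr17:34000430-34000458, minus strand): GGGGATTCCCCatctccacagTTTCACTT
H2-D1 (chr17:35262923-35262951, plus strand): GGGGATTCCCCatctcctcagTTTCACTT
B2m held an IRF core as part of the longer ISRE core (GAAA, NN and GAAA again), which is in 2.98% of windows, and no kB match. A GAS element (TTCNNNGAA, 7.02% of windows), a site of the interferon gamma response, was matched only before Psmb8. Tap1, Tapbp, Psmb9 and Psmb10 held none of the kB, IRF, GAS or X2-to-Y letters in these windows. A match is a description of the letters and not a shown site of binding.

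Libraries held 1776490 to 14761853 counts in the culture table, 1486347 to 5532630 in the passage table after technical replicates were summed, and 1059002 to 11175868 among the 35 organoids. Levels are counts per 1000000 counts (CPM) after TMM scaling, a method that sets library sizes by the bulk of the genes. Tables were scaled separately, and 3′-end counts do not compare levels between genes. Cholangiocyte markers (10 genes with Epcam, Krt19 and Sox9) summed to 4128–15804 CPM over all libraries. The sums were 263–2776 CPM for hepatocyte, 0–3.00 for endothelial, 0–5.92 for mesenchymal and 0.723–90.6 for leukocyte markers. Of the 10 hepatocyte markers only 6 or 7 had counts, by experiment, and Tf was listed under a symbol that matched no gene. Sums of different lists are thus not a measure of the shares of cell types. The highest leukocyte sum was that of dome replicate 2, where Cd68 alone gave 87.7 CPM. Dome libraries differed more from each other than suspension libraries did (chi-square per degree of freedom over genes 20.0–33.4 against 4.61–10.0), and dome replicate 1 was the deepest.

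The comparison of passages asks what changes as the same organoid lines are kept in culture. All 10 class I genes were lower at passage 11 than at passage 4, and each fell in every one of the 3 sets. Psmb8, a catalytic subunit of the immunoproteasome, changed most among them, 7.00-fold, and Psmb10 least among them, 1.50-fold. All 10 passed an adjusted p of 0.05 in edgeR's quasi-likelihood test, where 10.1% of the 13738 genes tested were lower by that rule and 20.3% changed either way. For all 10, the 3 values at passage 11 lay below the 3 at passage 4, a separation found in 39% of genes tested. The median log2 fold-change was −1.49 over the 10 and −0.05 over all genes tested. In bulk samples, fewer cells that express a gene and less RNA per cell cannot be told apart.

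**Figure D1:**
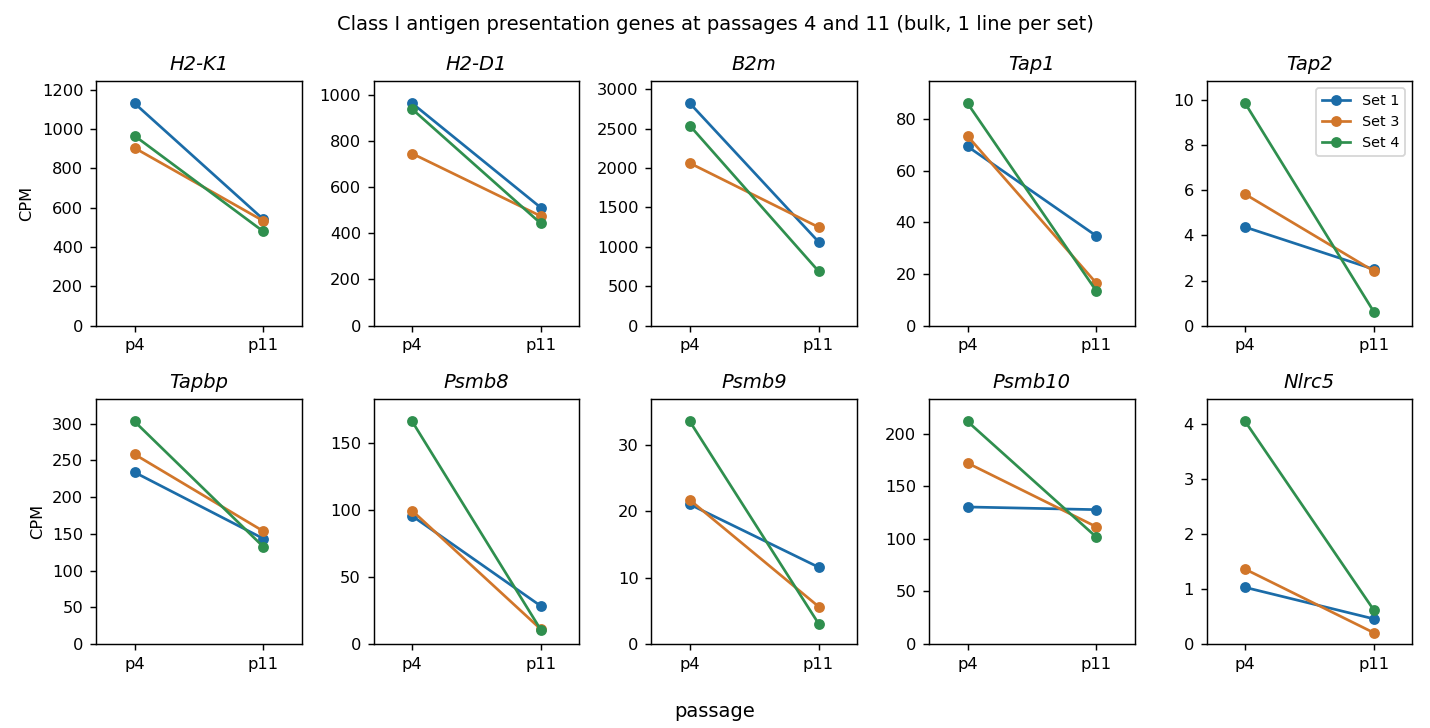
CPM (y axis, linear from 0) of each of the 10 class I genes at passage 4 and passage 11 (x axis), with 1 line for each of Sets 1, 3 and 4. Every line falls, by little for Psmb10 in Set 1 (130.5 to 128 CPM) and steeply for Psmb8 in Set 4 (166 to 10.4 CPM).

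Heavy chains hold the peptide and face the T cell. H2-K1 stood at 1130.2, 903 and 965 CPM in Sets 1, 3 and 4 at passage 4 and at 541, 533 and 479 CPM at passage 11 (log2 fold-change −0.95, SE 0.14, adjusted p = 0.00246, edgeR). H2-D1 went from 963, 745 and 938 CPM to 511, 474 and 442 CPM (−0.89, SE 0.15, adjusted p = 0.00398, edgeR). At passage 11 the sets lay close together, within 1.13-fold of each other for H2-K1 and 1.15-fold for H2-D1. The counts of H2-K1 over those of H2-D1 were 1.03–1.21 at passage 4 and 1.06–1.12 at passage 11, so the share between the heavy chains moved little beside their fall. Reads can be split between these near-identical genes and their paralogs of the H2-Q and H2-T families, and heavy chain values carry that uncertainty.

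B2m, the light chain that every class I molecule needs to reach the surface, stood at 2821, 2062 and 2537 CPM at passage 4. At passage 11 it was at 1064, 1249.9 and 692 CPM (log2 fold-change −1.30, SE 0.21, adjusted p = 0.00341, edgeR). Set 3 was lowest of the sets at passage 4 and highest at passage 11, and its fall of 1.65-fold compares with 2.65-fold in Set 1 and 3.67-fold in Set 4. Tapbp, or tapasin, which bridges the transporter and the empty heavy chain, went from 234, 258 and 303 CPM to 144, 154 and 133 CPM (−0.88, SE 0.14, adjusted p = 0.00326, edgeR). It fell about as far as the heavy chains, and the sets did not overlap between passages.

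The transporter is made of the products of Tap1 and Tap2. Tap1 stood at 69.3, 73.4 and 86.0 CPM at passage 4 and at 34.8, 16.5 and 13.5 CPM at passage 11 (log2 fold-change −1.77, SE 0.28, adjusted p = 0.00291, edgeR). Set 1 kept the most at passage 11, with a 1.99-fold fall against 4.44-fold in Set 3 and 6.37-fold in Set 4. Tap2 was far less counted, at 4.37, 5.82 and 9.85 CPM against 2.50, 2.42 and 0.614 CPM (−1.68, SE 0.44, adjusted p = 0.0235, edgeR), and rested on 103 counts at passage 4 and 24 at passage 11. Set 4 was its highest library at passage 4 and its lowest at passage 11, with 1 count there. Its call was lost in 7 of 17 alternatives, among them without Set 4 (adjusted p = 0.128), without Set 3 (0.0977) and without Set 1 at passage 11 (0.0506).

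The 3 immunoproteasome subunits replace Psmb5, Psmb6 and Psmb7 of the standard particle. Psmb8 went from 95.3, 99.2 and 166 CPM to 28.2, 10.9 and 10.4 CPM (log2 fold-change −2.81, SE 0.36, adjusted p = 0.00114, edgeR). Psmb9 went from 21.1, 21.7 and 33.6 CPM to 11.6, 5.64 and 3.07 CPM (−1.80, SE 0.35, adjusted p = 0.0071, edgeR). Set 4 was the highest library of both at passage 4 and the lowest at passage 11, while Set 1 kept the most. The passage 11 sample of Set 4 was the shallowest bulk sample (1486347 counts), with 17 counts of Psmb8 and 5 of Psmb9. For Psmb8 it was close to Set 3, above it in technical replicate 1 (12.8 against 9.31 CPM) and below it in replicate 2 (7.11 against 12.3 CPM). Psmb10 was at 130.5, 172 and 212 CPM and then at 128, 112 and 102 CPM (−0.59, SE 0.18, adjusted p = 0.0422, edgeR). The lowest value of Psmb10 at passage 4 and its highest at passage 11 are those of Set 1, which differ by 1.02-fold, and its call was lost in 8 of 17 alternatives, among them without Set 1 at passage 11 (adjusted p = 0.053), without Set 3 (0.223) and without Set 4 (0.26). The call of Psmb9 was lost without Set 3 (adjusted p = 0.0589).

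The standard particle did not fall with them. Of its 14 core genes, 13 had a positive log2 fold-change, with Psmb2 higher by the test and none lower. Psmb5, the counterpart of Psmb8, stood at 86.0, 94.3 and 91.1 CPM at passage 4 and at 117, 95.3 and 80.4 CPM at passage 11 (log2 fold-change 0.12, SE 0.15, adjusted p = 0.611, edgeR), with overlap. The counts of Psmb8 over Psmb5 in the same library were thus 1.05–1.82 at passage 4 and 0.114–0.241 at passage 11. Those of Psmb9 over Psmb6 were 0.0462–0.0751 and 0.00635–0.02. Both ratios are given as descriptions without a test, and the sets did not overlap in either. In the culture and single organoid tables, the ratio of Psmb8 to Psmb5 was at most 0.179, in an organoid of Set 2, a value from separate libraries that is given without a test.

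**Figure D2:**
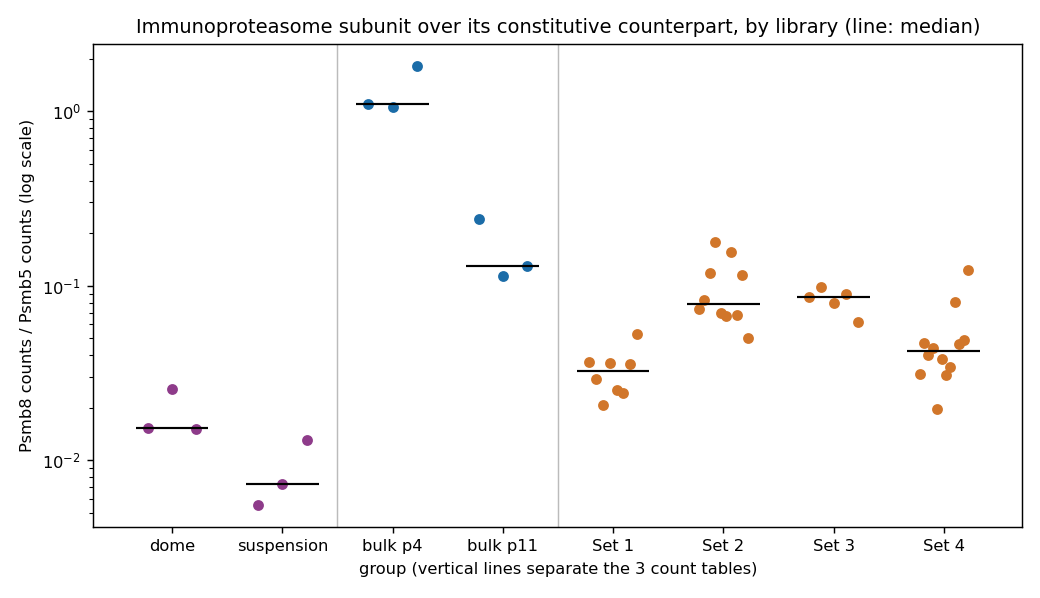
Counts of Psmb8 over those of Psmb5 in each library (points, y axis on a log scale) by group (x axis), with the median of the group as a line. Bulk passage 4 libraries lie between 1.05 and 1.82, and all others between 0.00555 and 0.241.

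Nlrc5 was barely counted: 1.03, 1.36 and 4.05 CPM at passage 4 and 0.454, 0.201 and 0.614 CPM at passage 11, from 34 and 4 counts in all. Its log2 fold-change of −2.52 (SE 0.77, adjusted p = 0.0429, edgeR) came with a wide error, and the call was lost in 8 of 13 alternatives, among them limma-voom (adjusted p = 0.0862). Without Set 3 at both passages, 6 of the 10 genes were still called: H2-K1, H2-D1, B2m, Tap1, Tapbp and Psmb8.

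Around the 10 genes, 89 further genes of the pathway were followed in 9 groups, of which 76 could be tested: 17 were lower and 5 higher at passage 11, where 10.1% of all genes tested were lower and 10.1% higher. Of 11 other class I heavy chains tested, 5 were lower and none higher, and all 11 had a negative log2 fold-change. H2-T23, the non-classical heavy chain Qa-1 that presents to natural killer and CD8 T cells, stood at 12.6, 12.2 and 20.8 CPM at passage 4 and at 4.77, 4.23 and 4.30 CPM at passage 11 (log2 fold-change −1.78, SE 0.29, adjusted p = 0.00343, edgeR). H2-Q6 went from 15.7, 5.43 and 12.1 CPM to 3.86, 2.22 and 0.614 CPM (−2.10, SE 0.49, adjusted p = 0.0153, edgeR). Neither overlapped between passages.

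Of the 15 transcription factors of class I promoters, Stat2 and Irf9, partners in the answer to type I interferon, were lower and the CCAAT-binding subunit Nfyc was higher. Irf9 stood at 72.4, 65.4 and 73.7 CPM at passage 4 and at 53.6, 35.3 and 15.3 CPM at passage 11 (log2 fold-change −0.96, SE 0.29, adjusted p = 0.0413, edgeR). As for Tap1, Psmb8 and Psmb9, Set 1 kept the most. Set 4, the shallowest sample at passage 11, had the least, from 25 counts of Irf9. Irf1, which drives class I genes after interferon gamma, was at 36.0, 39.6 and 40.3 CPM and then at 35.0, 18.1 and 11.0 CPM, and did not pass (−0.78, SE 0.29, adjusted p = 0.0818, edgeR).

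Of 5 genes for activators and assembly of the proteasome, Psme1 and Psme2, which form the interferon-inducible PA28 cap, and Psme4 were lower, and Psme3, which forms a nuclear cap, was higher. Psme2 averaged 461 CPM at passage 4 and 260 CPM at passage 11 (log2 fold-change −0.82, SE 0.18, adjusted p = 0.0115, edgeR). Of 13 genes for loading and trimming, Erap1, which trims peptides in the endoplasmic reticulum, fell from a mean of 18.8 to 7.50 CPM (−1.25, SE 0.24, adjusted p = 0.00656, edgeR), along with Tapbpl and Uggt1, while the cytosolic peptidases Blmh and Thop1 rose. Of the 11 interferon receptor and signalling genes tested, Ifnar2, Ifngr1 and Jak2 were lower and none was higher. The 4 class I-like genes had adjusted p-values of 0.0531 (Mr1) to 0.937 (Hfe) and the 3 class II genes tested 0.152 (Cd74) to 0.697 (H2-DMb1), all edgeR. The 6 interferon genes themselves were not testable, with rows for 3 that did not pass the filter on low counts.

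Leukocyte markers summed to 18.7, 4.85 and 5.45 CPM at passage 4 and to 5.00, 3.43 and 4.30 CPM at passage 11, mostly through Cd68 (log2 fold-change −1.33, SE 0.57, adjusted p = 0.127, edgeR). Ptprc, which marks all leukocytes, was at 0 in 5 of the 6 samples and at 0.194 CPM in the other. In Set 3, with the lowest leukocyte sum at both passages, Tap1 was 4.44-fold and Psmb8 9.12-fold lower at passage 11. Its falls were the smallest of the sets for H2-K1 (1.70-fold), H2-D1 (1.57-fold) and B2m (1.65-fold). They were the largest for Nlrc5 (6.74-fold) and lay between those of Sets 1 and 4 for the other genes, Tap1 and Psmb8 among them. Hepatocyte markers summed to 309–736 CPM at passage 4 and 802–1107 CPM at passage 11, and 3 of the 5 tested had a positive log2 fold-change. The part of either in these results was not tested.

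The comparison of culture methods asks how the surroundings of the organoids bear on expression. Of the 9 genes tested, H2-D1, Tapbp and Psmb9 were higher in domes than in suspension and none was lower, where 29.8% of all 12699 genes tested were called, 15% higher and 14.7% lower. The 3 dome values lay above the 3 suspension values for 7 of the 9, the exceptions being H2-K1 and Psmb10. Such a separation in either direction was found in 47.4% of genes tested. The median log2 fold-change was 0.93 over the 9 genes and −0.04 over all genes tested.

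**Figure D3:**
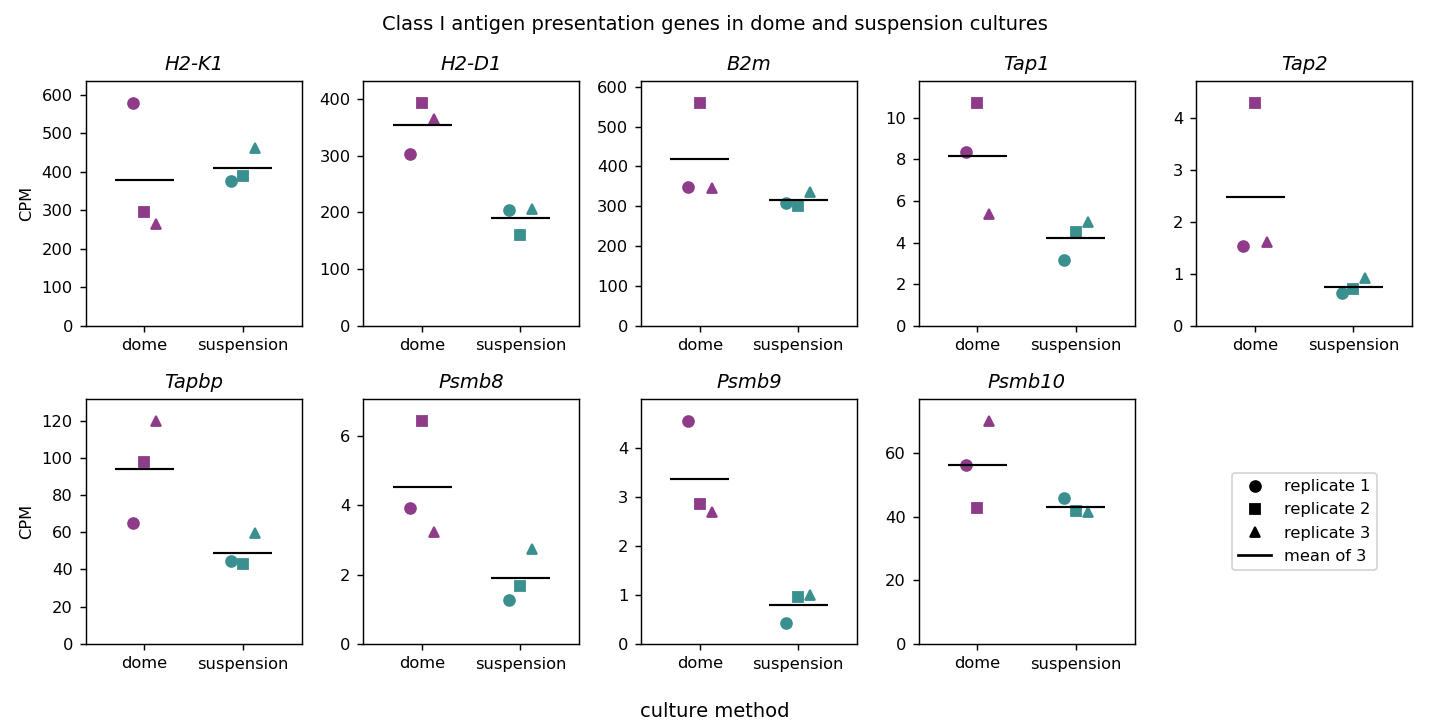
CPM (y axis, linear from 0) of the 9 class I genes with a row in the culture table, in 3 dome and 3 suspension cultures (x axis). Symbols mark the replicate number and lines the mean of 3, and dome replicate 1 is the highest dome for H2-K1 (578 CPM) and the lowest for H2-D1 (303 CPM).

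The heavy chains parted. H2-D1 stood at 303, 392 and 365 CPM in dome replicates 1 to 3 and at 204, 159.6 and 206 CPM in suspension (log2 fold-change 0.93, SE 0.20, adjusted p = 0.00913, edgeR). H2-K1 stood at 578, 296 and 264 CPM in domes and at 376, 390.2 and 461 CPM in suspension, with overlap (−0.08, SE 0.29, adjusted p = 0.865, edgeR). Dome replicate 1 alone was above every suspension culture in H2-K1, and the other two domes were below all of them. The counts of H2-K1 over H2-D1 were 1.91 in dome replicate 1 and 0.755 and 0.724 in the other domes, against 1.84–2.44 in suspension. Without suspension replicate 2 the call for H2-D1 was lost (adjusted p = 0.0595).

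B2m was at 348, 559 and 346 CPM in domes and at 309, 299.8 and 337 CPM in suspension, a small separation that did not pass (log2 fold-change 0.44, SE 0.24, adjusted p = 0.181, edgeR). Tapbp was at 65.1, 97.7 and 119.5 CPM in domes and at 44.3, 42.9 and 59.8 CPM in suspension (0.96, SE 0.26, adjusted p = 0.0199, edgeR). Dome replicate 1 was its lowest dome, and the call was lost without suspension replicate 1 (adjusted p = 0.0808), suspension replicate 2 (0.0847) or dome replicate 3 (0.0566).

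The transporter genes were low and did not pass. Tap1 was at 8.37, 10.7 and 5.39 CPM in domes and at 3.16, 4.51 and 5.01 CPM in suspension (log2 fold-change 0.93, SE 0.32, adjusted p = 0.0514, edgeR), and passed under limma-voom (0.0436), with a minimum count of 10 (0.0489) or without dome replicate 3 (0.0321). Tap2 was at 1.54, 4.28 and 1.62 CPM in domes and at 0.633, 0.712 and 0.917 CPM in suspension, from 29 and 19 counts (1.35, SE 0.55, adjusted p = 0.0856, edgeR). Dome replicate 2 was the highest culture of both genes.

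Of the immunoproteasome, Psmb9 differed most between the methods among the 9 genes, at 4.53, 2.85 and 2.69 CPM in domes and 0.422, 0.949 and 0.988 CPM in suspension (log2 fold-change 2.16, SE 0.44, adjusted p = 0.00703, edgeR). It rested on 68 counts in domes, most of them from dome replicate 1, and 20 in suspension, and without dome replicate 1 its adjusted p was 0.0711. Psmb8 was at 3.92, 6.42 and 3.23 CPM in domes and at 1.27, 1.66 and 2.75 CPM in suspension (1.08, SE 0.42, adjusted p = 0.0761, edgeR), and Psmb10 was at 56.1, 42.8 and 70.0 CPM against 45.8, 41.7 and 41.6 CPM (0.42, SE 0.21, adjusted p = 0.152, edgeR). Neither passed, and the methods overlapped for Psmb10 but not for Psmb8. Without dome replicate 2 Psmb10 passed (adjusted p = 0.043).

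In the wider pathway 10 of 70 genes tested were higher and 4 lower in domes, so that the higher calls were about as frequent as among all genes tested (15% higher, 14.7% lower). Among the other heavy chains H2-Q2, H2-Q10, H2-T22 and H2-T23 were higher and H2-Q7 lower. H2-Q10, a secreted heavy chain of the liver, was at 3.92, 20.0 and 25.3 CPM in domes and at 1.69, 2.37 and 3.39 CPM in suspension (log2 fold-change 2.50, SE 0.65, adjusted p = 0.0183, edgeR). H2-Q2 was at 17.1, 8.56 and 6.46 CPM against 3.37, 3.56 and 3.81 CPM (1.73, SE 0.36, adjusted p = 0.00711, edgeR). Neither overlapped between methods. Irf9 was at 20.1, 47.1 and 16.2 CPM against 8.86, 5.46 and 9.17 CPM (1.78, SE 0.40, adjusted p = 0.00986, edgeR). Irf1 was not called (−0.05, SE 0.25, adjusted p = 0.89, edgeR). Tapbpl and the receptor and signalling genes Ifngr2, Il10rb and Socs3 were higher and the CRE-binding factor Creb1 lower. Of the standard proteasome core, none was higher, and Psma4 and Psmb7 were lower.

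Cell type markers are given for the culture methods too. Of the 2 leukocyte markers that could be tested, 1 had a positive log2 fold-change. Leukocyte markers summed to 7.37, 90.6 and 28.5 CPM in domes and to 3.58, 9.49 and 6.92 CPM in suspension. Cd68, a lysosomal protein of macrophages, carried most of this (log2 fold-change 3.06, SE 0.84, adjusted p = 0.0223, edgeR), while Ptprc reached 1.43 CPM at most and Adgre1, the macrophage marker F4/80, had counts only in dome replicate 1 (0.0768 CPM). Dome replicate 1, with few of these markers, was the highest dome for H2-K1 and Psmb9 and the lowest for H2-D1, Tap2 and Tapbp. Cholangiocyte markers summed to 10044–15804 CPM in domes and 7109–7852 CPM in suspension, and 5 of the 10 genes had a positive log2 fold-change. The part of either in these results was not tested.

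Single organoids allow the spread among organoids of 1 mouse to be seen, and the 4 sets to be compared. Set 2 had the highest median of the sets for B2m, Tap1 and Psmb8, and Set 1 the lowest for Tap1 and Psmb8. In Set 1 against Set 2, B2m, Tap1, Psmb8 and Psmb9 were lower in Set 1 and none of the 9 genes tested was higher, where 7.19% of the 13927 genes tested were lower and 7.08% higher. All 9 log2 fold-changes were negative, with a median of −0.51 against 0.01 over all genes tested. P-values of the 6 comparisons between sets were adjusted together.

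**Figure D4:**
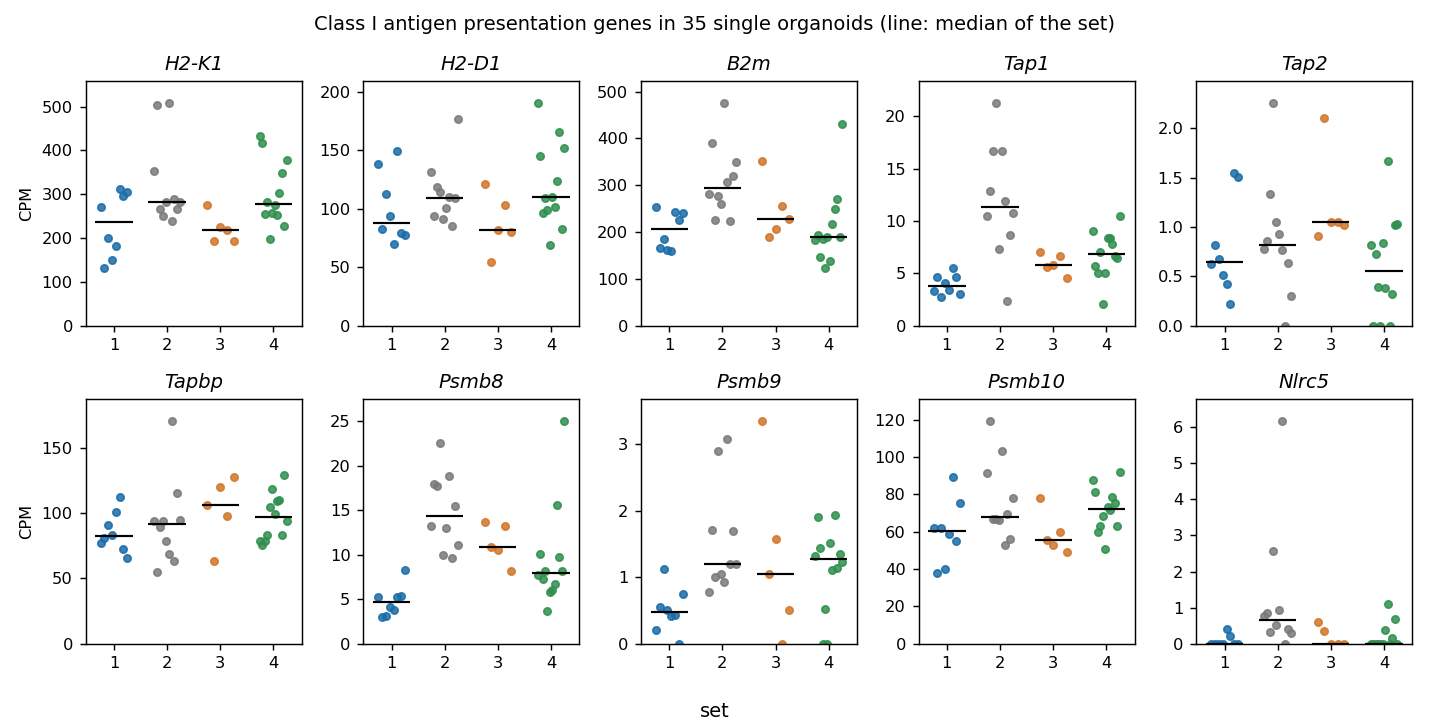
CPM (y axis, linear from 0) of the 10 class I genes in each of the 35 single organoids (points), by set (x axis), with the median of the set as a line. Psmb8 in Set 1 (3.02–8.31 CPM) lies below every organoid of Set 2 (9.58–22.5 CPM), and for the other genes the sets overlap.

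Psmb8 ran from 3.02 to 8.31 CPM in the 8 organoids of Set 1 (median 4.67) and from 9.58 to 22.5 CPM in the 10 of Set 2 (median 14.3). It was the only one of the 9 genes without overlap between those sets (log2 fold-change −1.73, SE 0.26, adjusted p = 9.36e-06, edgeR), a separation found in 1.13% of genes tested. This holds for the kept organoids only. Of the left-out organoids of Set 1, organoid 10 had 16.5 CPM, from 14 counts, within the range of Set 2, and organoid 9 had 4.52 CPM. The 5 organoids of Set 3 were at 13.7, 10.9, 10.5, 13.3 and 8.15 CPM, and the 12 of Set 4 ran from 3.64 to 24.9 CPM with a median of 7.93. Set 1 was lower than both as well, by −1.34 against Set 3 (SE 0.30, adjusted p = 0.00235, edgeR) and by −1.09 against Set 4 (SE 0.26, adjusted p = 0.00323, edgeR). Set 2 was higher than Set 4 (0.64, SE 0.22, adjusted p = 0.0458, edgeR), a call lost without a filter on low counts (0.0826) and after thinning to equal depth (0.11), and Set 3 was not called different from Set 2 or Set 4 (adjusted p = 0.385 and 0.602, edgeR).

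Tap1 ran from 2.69 to 5.51 CPM in Set 1 (median 3.75), from 2.40 to 21.3 CPM in Set 2 (median 11.4) and from 2.08 to 10.5 CPM in Set 4 (median 6.85). In Set 3 it was at 6.99, 5.62, 5.77, 6.63 and 4.59 CPM. Organoid 9 of Set 2, with 4 counts, lay below all 8 organoids of Set 1, while the next of its own set had 7.36 CPM. Set 2 was higher than Set 1 (the log2 fold-change of Set 1 against Set 2 was −1.62, SE 0.25, adjusted p = 1.79e-05, edgeR), than Set 3 (0.98, SE 0.29, adjusted p = 0.0201, edgeR) and than Set 4 (0.78, SE 0.21, adjusted p = 0.0128, edgeR). Set 1 was lower than Set 4 (−0.84, SE 0.25, adjusted p = 0.0217, edgeR). The call between Sets 2 and 3 was lost without organoid 6 of Set 3 (adjusted p = 0.0535) and with limma-voom (0.0837), that between Sets 2 and 4 with limma-voom (0.0595), and that between Sets 1 and 4 over all 42 organoids (0.0857) and after thinning to equal depth (0.0618).

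B2m ran from 159.4 to 252 CPM in Set 1 (median 206), from 224 to 475 CPM in Set 2 (median 294) and from 124 to 429.8 CPM in Set 4 (median 190.1). In Set 3 it was at 351, 190.0, 205, 256 and 229 CPM. Set 2 was higher than Set 1 (−0.63 for Set 1 against Set 2, SE 0.18, adjusted p = 0.0172, edgeR) and than Set 4 (0.58, SE 0.16, adjusted p = 0.0127, edgeR). Sets 1 and 4 were close, with a log2 fold-change of −0.04 (SE 0.17, adjusted p = 0.903, edgeR). Organoid 15 of Set 4 had 429.8 CPM of B2m and, with 24.9 CPM, the most Psmb8 of all 35.

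H2-K1 ran from 131 to 312 CPM in Set 1 and from 239 to 507 CPM in Set 2, where the difference just missed the threshold (log2 fold-change −0.51, SE 0.18, adjusted p = 0.0516, edgeR). It passed in 6 alternatives, among them DESeq2 (adjusted p = 0.0293) and limma-voom (0.0398). H2-D1 was not called between any sets, with medians of 88.2, 109.5, 81.8 and 109.8 CPM in Sets 1 to 4, nor were Tap2, Tapbp and Psmb10. Psmb9, with 15 counts over all of Set 1, was lower there than in Set 2 (−1.63, SE 0.48, adjusted p = 0.0207, edgeR). Nlrc5 did not pass the filter on low counts. It had no count in 6 of 8 organoids of Set 1, 3 of 5 of Set 3 and 8 of 12 of Set 4, but only in 1 of 10 of Set 2, which held 33 counts against 2, 3 and 6 in Sets 1, 3 and 4.

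Between Sets 3 and 4 none of the 9 genes was called in edgeR, limma-voom or DESeq2, with 2 (H2-K1 and H2-D1) at an unadjusted p under 0.05. Of all genes tested there, 7.89% were called higher and 3.67% lower in Set 3. Against Set 3, Set 1 was lower in Psmb8 alone of the 9, where 5.13% of genes tested were lower and 4.3% higher. Against Set 4, Set 1 was lower in Tap1 and Psmb8, where 7.6% were lower and 12.4% higher. Set 2 was higher than Set 3 in Tap1, where 2.05% were higher and 1.88% lower, and higher than Set 4 in B2m, Tap1 and Psmb8, where 7.02% were higher and 5.35% lower. The comparisons share organoids, so that these counts are not independent of each other.

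**Figure D5:**
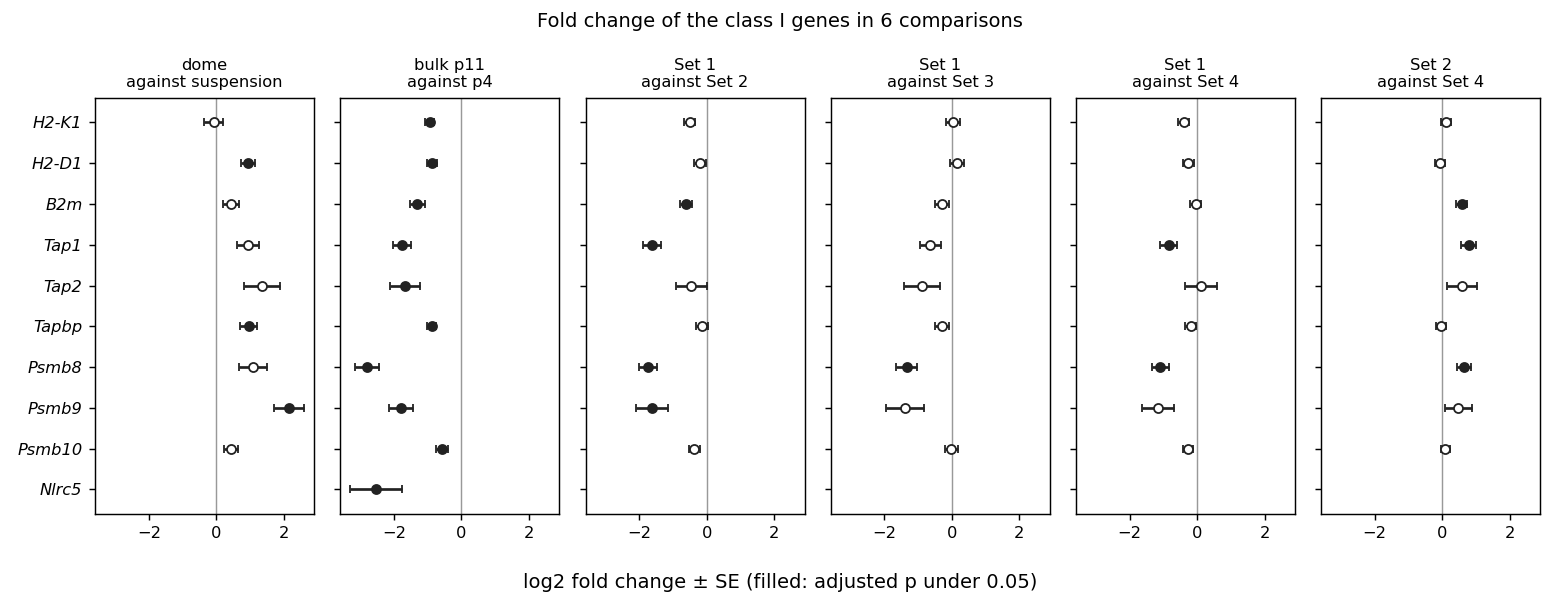
Log2 fold-change (x axis, points, with bars for ± 1 SE) of the 10 class I genes (y axis) in 6 of the 8 comparisons (Set 2 against Set 3 and Set 3 against Set 4, where Psmb8 was not called, are left out), with filled points for an adjusted p under 0.05. All 10 points are filled and left of 0 for bulk passage 11 against 4, and Psmb8 is filled in each panel shown but that of dome against suspension.

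In the wider pathway, 10 of 71 genes tested were lower and 4 higher in Set 1 than in Set 2, where 7.19% of all genes tested were lower and 7.08% higher. Irf9 was without overlap, at 5.06–9.48 against 14.8–35.4 CPM (log2 fold-change −1.83, SE 0.19, adjusted p = 6.20e-09, edgeR). Stat2, the heavy chains H2-Q4, H2-Q6, H2-Q7 and H2-M3, the class I-like Mr1 and the proteasome subunits Psma1 and Psmb7 were lower too, while the chaperones Calr and Pdia3, the X-box factor Rfxank and the receptor Il10rb were higher. Against Set 3, Set 1 was lower in Irf9 (−1.31, SE 0.22, adjusted p = 5.03e-05, edgeR), Stat2, Nfkb1, Ifnar2 and H2-Q10 (−1.15, SE 0.32, adjusted p = 0.015, edgeR), and higher in Calr and Rfxap. Against Set 4 it was lower in Irf9, H2-Q6 (−1.37, SE 0.44, adjusted p = 0.0343, edgeR), H2-Q7 (−0.96, SE 0.27, adjusted p = 0.013, edgeR), Psme3 and the proteasome subunits Psmb3, Psmb5 and Psmb6, but higher in Irf1, Irf2, Rfxank, Rfxap, Calr, Jak1, Jak2 and Ifngr2. H2-T23 went the other way from Tap1 and Psmb8 there, at a mean of 18.7 CPM in Set 1 and 9.02 CPM in Set 4 (1.07, SE 0.22, adjusted p = 0.000873, edgeR). H2-Q6 was lower in Set 1 than in Set 2 (−2.41, SE 0.43, adjusted p = 0.000137, edgeR) and higher in Set 2 than in Set 3 (2.00, SE 0.51, adjusted p = 0.00756, edgeR), while the interferon gamma receptor Ifngr1 was lower in Set 2 than in Set 3 (−0.66, SE 0.21, adjusted p = 0.0346, edgeR). Set 2 exceeded Set 4 in Stat2 (1.98, SE 0.24, adjusted p = 1.61e-07, edgeR) and Irf9 (1.11, SE 0.16, adjusted p = 5.13e-06, edgeR). Set 3 exceeded Set 4 in Stat2 (1.27, SE 0.29, adjusted p = 0.00258, edgeR), Irf9, Nfkb1 (1.06, SE 0.23, adjusted p = 0.00173, edgeR) and the interferon receptor Ifnar2 (1.06, SE 0.20, adjusted p = 0.00027, edgeR). Stat2 and Irf9 were thus called between Sets 3 and 4, where no class I gene of the 9 was called. Leukocyte markers summed to 0.723–7.79 CPM in single organoids, with Ptprc at 1.04 CPM at most and Cd68 at 4.64 CPM at most. Csf1r, the receptor of a macrophage growth factor, was lower in Set 1 than in Set 2 (−1.29, SE 0.44, adjusted p = 0.0438, edgeR) and Set 3, at means of 0.962, 2.03 and 2.83 CPM. Hepatocyte markers were called higher in Set 1 than in Set 2 for 3 of 5 genes tested and than in Set 4 for 4 of 5. The part of either in these results was not tested.

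Within a set, the organoids of 1 mouse still differed. The highest organoid exceeded the lowest by 1.58-fold for B2m in Set 1 and by 3.47-fold in Set 4, by 6.85-fold for Psmb8 in Set 4 and by 8.87-fold for Tap1 in Set 2. Single organoids carry these folds: without organoid 9 of Set 2 its lowest Tap1 level was 7.36 CPM in place of 2.40, and without organoid 15 of Set 4 its highest levels were 15.5 CPM of Psmb8 in place of 24.9 and 271 CPM of B2m in place of 429.8. Psmb10 spanned 1.59-fold (Set 3) to 2.35-fold (Set 1), and Tapbp 1.70-fold (Set 4) to 3.10-fold (Set 2). Depth bears on this most for the rare genes: 1 count equals 0.104–0.928 CPM over these libraries, and Tap2, Psmb9 and Nlrc5 lie near the level of a few counts. The low ends of the Tap1 span in Set 2 and the Psmb8 span in Set 4 rest on few counts too. They are 4 counts in organoid 9 of Set 2 and 7 counts in organoid 6 of Set 4. The part of counting error in these folds was not tested.

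Across the 35 organoids, after the mean of each set was removed, the 7 genes with at least 5 CPM on average gave 21 pairs with correlations from −0.43 to 0.84 and a median of 0.37, of which 17 were positive. The pairs share libraries and depth and are given as a description. H2-K1 went most closely with Psmb10 (r = 0.84) and B2m (0.65), and B2m with Psmb8 (0.68). Tapbp stood outside, at −0.43 with H2-K1, −0.04 with B2m and −0.03 with Psmb8.

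Of 7801 other genes with at least 10 CPM, those most like the mean of the 10 standardised genes over the 35 organoids were Lgals9 (r = 0.77), Bst2 (0.71), Gm12013 (0.71), Shisa5 (0.70), 2410006H16Rik (0.68), Ppp1r12c (0.68), Ifi35 (0.67), Gm42845 (0.67), Cebpd (0.67) and Idh2 (0.67), where the median gene had r = 0.04. Bst2, which tethers budding virus particles, and Ifi35 are known as interferon-induced genes. Of the wider pathway, Psme1 (r = 0.64, rank 28) and Psme2 (0.60, rank 101) came first, while Irf9 (0.41) and Stat2 (−0.01) followed the 10 genes less within sets.

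Levels of the class I genes differed widely between the 3 tables. B2m was at 692–2821 CPM in bulk passage samples, 299.8–559 CPM in the culture table and 124–475 CPM in single organoids, and Psmb8 at 10.4–166, 1.27–6.42 and 3.02–24.9 CPM. Other genes differed between tables in the other direction: Psmb7 was at 4.66–8.46 CPM in bulk passage samples, against 36.1–150.4 CPM in the culture table and 9.43–44.5 CPM in single organoids. The tables were made from separate libraries and scaled separately, so these levels are given without a test. Sets 1, 3 and 4 appear in both passage and single organoid tables. In bulk, Set 1 at passage 11 had more Psmb8 (28.2 CPM) than Sets 3 and 4 at passage 11 (10.9 and 10.4 CPM). It had less than Sets 3 and 4 at passage 4 (99.2 and 166 CPM). At bulk passage 4, Set 1 was already the lowest of the sets in Psmb8 (95.3 CPM). Single organoids of Set 1, from passage 11, had less Psmb8 on average than those of Sets 3 and 4 from early passages. Not all genes that fell in bulk did so: H2-K1 averaged 231 CPM in Set 1 and 221 CPM in Set 3, and B2m 204 CPM in Set 1 and 210 CPM in Set 4. Of the 9 genes tested, 1 was called lower in Set 1 than in Set 3, and 2 than in Set 4.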

How the data were processed

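Libraries were 3′-end libraries with molecular identifiers. Per the study's methods, the authors processed reads in zUMIs with STAR and featureCounts on GRCm38 (mm10) and down-sampled libraries where their sizes varied; the sources used here do not give whether the deposited counts are molecules or reads, or the depth after down-sampling. The submitters' processing notes name SAMtools 1.9, R 3.6.3, edgeR 3.28.1 and limma 3.42.2. The deposited counts per gene were used as whole numbers. Rows without a gene symbol numbered 24, 24 and 42 in the culture, passage and single organoid tables.

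Here, with R 4.3.3, both technical replicates of a bulk sample were summed, and the 35 organoids named in the study's supplement were kept of 42. Genes were filtered with filterByExpr (minimum count 3), scaled by TMM and tested with edgeR 4.0.16 (glmQLFit, glmQLFTest) with Benjamini-Hochberg adjustment over all genes tested, and over the 6 comparisons of sets together for single organoids. An adjusted p under 0.05 was called. A fold-change names the first group over the second. limma-voom (limma 3.58.1), DESeq2 1.42.0, other size factors, filters, thinning, a replicate block and left-out replicates were alternatives. The test was checked on simulated counts. Log2 CPM for correlations used a prior count of 2, and each set was centred.

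The 10 genes and the pathway and marker lists were chosen with earlier results of these data known. All 10 genes are named in every comparison. Of the pathway, the total of calls is given for the passages, the culture methods and Set 1 against Set 2, with many of the called genes by name and, in every comparison, values for the 3 largest changes, save for 1 gene that enters the counts and is not reported here. Values of Psmb5, Psmb7, Irf1, Psme2, Erap1, Cd68, Csf1r and the class I-like and class II genes were added to these. Genes most alike were ranked among those with a mean of at least 10 CPM.

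Samples with the same number came from the same mouse in the passage experiment (correlation of same-set deviations 0.11, 0.0281 and 0.108 for Sets 1, 3 and 4). In the culture experiment the deviations of same-numbered cultures had correlations of 0.154, 0.166 and 0.193. The labels do not state which pool of animals each culture number stands for, so that a pairing of these cultures is not established. Whether single organoids are more than samples of 1 mouse is given by no label, so p-values between sets measure the spread among organoids of 1 mouse. The precision of a value rests on its depth: 1 count was worth 0.0768 CPM in dome replicate 1 and 0.713 CPM in dome replicate 2. The 7 left-out organoid libraries held 666660 to 1152914 counts.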

Additional observations from a re-analysis of the deposited data

Results flagged for a closer look

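Of 30 groups of 4 to 10 organoids checked, 5 held an organoid that lay far from the others of its set for one of the genes, where chance gives about 1 in 20. In Set 2, organoid 11 had 177 CPM of H2-D1, with the next at 132 CPM. Organoid 7 of Set 2 had 170.1 CPM of Tapbp, with the next at 116 CPM, and 6.16 CPM of Nlrc5, with the next at 2.58 CPM. In Set 1, organoid 8 had 8.31 CPM of Psmb8, with the next at 5.42 CPM, and still lay below all of Set 2. In Set 3, organoid 3 had 2.11 CPM of Tap2, with the next at 1.05 CPM, a difference of a few counts. Set 4 had more than 10 organoids and was not checked.

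In the 7 organoid libraries that the study left out, B2m was still counted, at 136 CPM in the lowest and 439 CPM in the highest of them, and H2-K1 at 203 to 537 CPM. Psmb8 ran from 2.40 to 16.5 CPM, with the highest value in organoid 10 of Set 1.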

How the results depend on the processing

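Over the single genes, 796 of 874 results had the same direction and side of the threshold, 43 lost the threshold, 12 gained it and 23 changed sign, none of which was called with either sign. Only genes called in the main fit could lose the threshold, so the 43 are not to be read as a share of all 874. In bulk, H2-K1, H2-D1, B2m, Tap1, Tapbp and Psmb8 were called in 17 of 17 alternatives. Leaving out 1 replicate gave 6 to 10 called genes in bulk (6 without Set 3), 1 to 4 in domes against suspension (1 without suspension replicate 2), 1 to 2 in Set 1 against Set 3 (2 without organoid 5 of Set 3, where Psmb9 passed at an adjusted p of 0.0335), 0 to 1 in Set 2 against Set 3 (0 without organoid 6 of Set 3) and 0 to 0 in Set 3 against Set 4. Among single organoids, only those of Set 3 were left out in turn. Comparisons of Sets 1, 2 and 4 with each other therefore have no such range. For Set 1 against Set 4, the 2 called genes became 1 after thinning, 1 with the replicate block and 0 over all 42 organoids. For Set 2 against Set 3, the 1 called gene became 0 with limma-voom, after thinning, with the replicate block and with adjustment within the comparison. For Set 3 against Set 4, the replicate block gave 1 called gene, B2m, in place of 0. The cause was not tested.

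With the pair number as a replicate block, 3 genes were called in domes against suspension and 10 in bulk, as without it. Among single organoids the numbers only name samples: same-numbered organoids of different sets had a median correlation of 0.0572 (−0.368 to 0.413), and 3 of 35 matched best with their own number. With the block 4 genes were called in Set 1 against Set 2, where Psmb9 was lost (adjusted p = 0.0729, edgeR) and H2-K1 gained (0.038), 1 in Set 1 against Set 3, and 2 in place of 3 in Set 2 against Set 4, where Tap1 was lost (0.0924).

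The changes of sign were as follows, as log2 fold-changes. With the replicate block, Tapbp was at 0.012 in Set 1 against Set 2, H2-K1 at −0.11 in Set 1 against Set 3, B2m at 0.20 and Tap2 at −0.22 in Set 1 against Set 4, and H2-D1 at 0.014 in Set 2 against Set 4. Over all 42 organoids, H2-K1 was at −0.027 in Set 1 against Set 3, B2m at 0.12 in Set 1 against Set 4, H2-D1 at 0.021 in Set 2 against Set 4, and Tapbp at −0.052 and Psmb10 at 9.5e-05 in Set 3 against Set 4. With limma-voom, H2-K1 was at −0.033 in Set 1 against Set 3, B2m at 0.0060 in Set 1 against Set 4 and Psmb9 at −0.16 in Set 3 against Set 4. After thinning, H2-K1 was at −0.040 in Set 1 against Set 3 and Tap1 at 0.030 in Set 3 against Set 4. Without a filter, Psmb10 was at 0.020 in Set 1 against Set 3. Leaving out 1 replicate, H2-K1 ranged from −0.50 (without dome replicate 1) to 0.11 (without dome replicate 3) in domes against suspension and from −0.017 to 0.10 in Set 1 against Set 3, Psmb10 from −0.066 to 0.091 in Set 1 against Set 3, and Psmb9 from −0.097 to 1.04 in Set 2 against Set 3 and from −0.57 to 0.58 in Set 3 against Set 4.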
